A study of Mus musculus with 12 samples.

Results

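The genes described here are 9 antioxidant enzymes and cofactors, chosen by name: the superoxide dismutases Sod1 and Sod2, catalase (Cat), glutathione peroxidase 1 (Gpx1), the peroxiredoxins Prdx1 and Prdx5, thioredoxin (Txn1), thioredoxin reductase 1 (Txnrd1) and methionine sulfoxide reductase B1 (Msrb1). All 9 were found by gene name among the 11911 genes of the table. They were read in 12 RNA-seq libraries of mouse neutrophils taken from the left ventricle. The genotype label reads Control for 6 of them (numbered 2, 6, 7, 8, 11 and 12) and LOY for the other 6 (3, 4, 5, 10, 14 and 15); LOY stands for loss of the Y chromosome in the series title. Each library was made from 800 cells sorted as CD45.2+Ly6G+CD64-RFP+, that is, cells with a leukocyte antigen, the neutrophil antigen Ly6G and red fluorescence but without CD64, a receptor typical of macrophages. All 12 titles name Control BMT (bone marrow transplant), LOY libraries included, and the treatment label is Control throughout. The sample codes in the titles end in C for the Control and in KO for the LOY libraries. How the Y chromosome was lost, and the strain, sex and age of the mice, are not given in the sources used here, nor is it stated whether the libraries of a group came from different mice. The p-values therefore measure only how far these libraries spread, which may be technical.

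Neutrophils make superoxide with their NADPH oxidase when they meet microbes or damaged tissue, and the same cells hold enzymes that limit the harm to themselves. Superoxide dismutases turn superoxide into hydrogen peroxide. Catalase, glutathione peroxidases and peroxiredoxins then reduce the peroxide, with electrons that reach peroxiredoxins through thioredoxin and its reductase, and methionine sulfoxide reductases repair oxidised methionine in proteins. Gpx1, Txnrd1 and Msrb1 are selenoproteins, which carry selenocysteine in the active site.

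Values are normalised reads, the reads of a gene divided by 1 factor per library by the authors. The reads of the listed genes came to between 6767108 and 12561174 per library, and 7539 to 9463 genes were above 0. The 20 most abundant genes held 33.4% of the normalised reads of Control 8 and 33.7% of those of LOY 15, against 18.3% to 26.8% in the other 10 libraries. All 10 neutrophil markers were in the table, and their sum ran from 185570 to 571420 normalised reads in the control and from 172010 to 343610 in the LOY libraries. Heart muscle markers were read as well. The 15 of them summed to between 4770 and 8279 normalised reads in the control and between 4499 and 66279 in the LOY libraries, with LOY 10 highest; 5 of the 6 LOY libraries, at 10896 to 66279, exceeded every control library. The 10 endothelial markers summed to 1062 to 4079 against 2632 to 6349, and the 8 fibroblast markers to 2972 to 10539 against 5835 to 16383, with Pdgfra and Lum at 0 in all control libraries. The 10 macrophage markers summed to 7624 to 9978 against 4074 to 13749, the 8 B cell markers to 3263 to 12353 against 2996 to 8887, and the 7 red cell and platelet markers in the table to 13.6 to 10063 against 165 to 6986, with Alas2 at 0 in all LOY libraries. Of the markers tested, 13 of 14 of heart muscle, 7 of 8 of endothelium and 6 of 6 of fibroblasts had positive log2 fold changes, LOY over control. The other lists were mostly negative, with 3 of 9 neutrophil, 2 of 9 macrophage, 1 of 7 B cell and 1 of 5 red cell and platelet markers positive. None of the markers tested was called in limma, where only 2 of all 6951 genes tested were (0.0288%), so that count says little about these lists. In bulk RNA, fewer cells of a type and less RNA per cell cannot be told apart.

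By the length of all exons joined, the genes fell into a group of 4 with the higher levels per kb in every library, Gpx1, Txn1, Prdx5 and Msrb1, and a group of 5 with lower ones, Prdx1, Sod1, Cat, Txnrd1 and Sod2. Per kilobase of exon, which allows genes of different length to be compared, Gpx1 stood highest at 5362 ± 2260 normalised reads per kb (SD, n = 12), rank 89 of 11892 genes with a known length. Txn1 followed at 3968 ± 2105, rank 119. Prdx5 had 1884 ± 704 and Msrb1 1877 ± 912 (SD, n = 12 each), ranks 242 and 243. The next gene, Prdx1, was at 186 ± 158, and Sod1 at 62.5 ± 45.7, Cat at 53.8 ± 68.2, Txnrd1 at 50.9 ± 47.0 and Sod2 at 40.8 ± 41.6 (SD, n = 12 each).

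**Figure D1:**
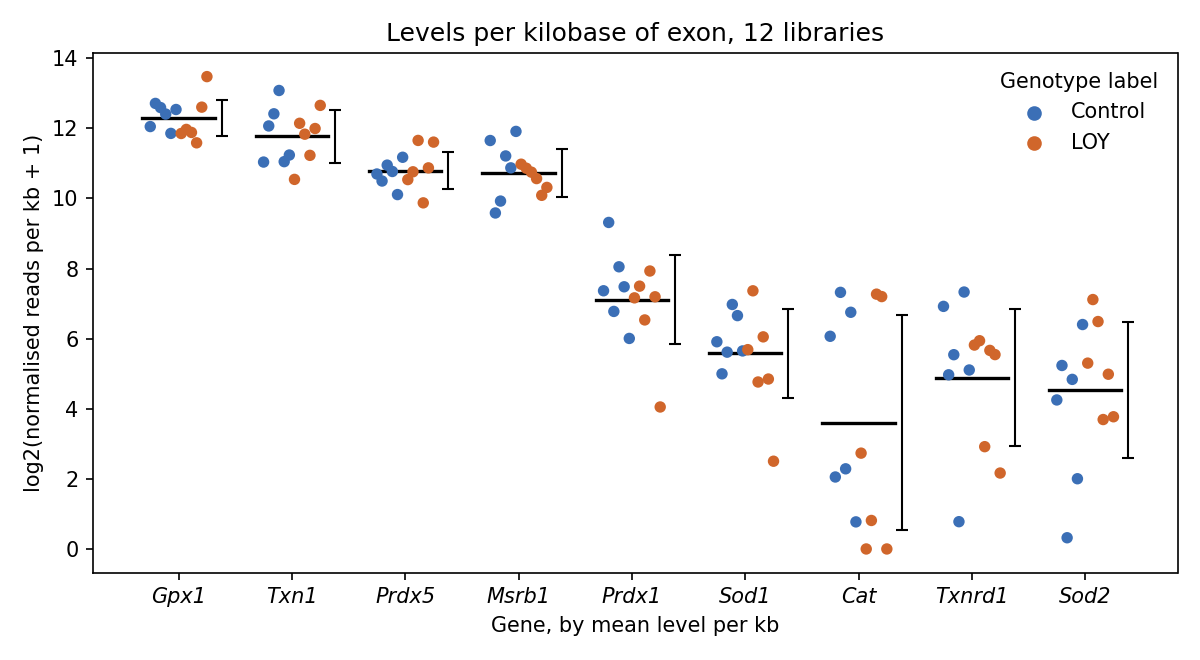
Level of each gene per kilobase of exon, as log2(normalised reads per kb + 1), for 12 libraries (points, by genotype label), with the mean (line) and its SD (bar). Gpx1, Txn1, Prdx5 and Msrb1 stand above Prdx1 and the other 4 genes in every library, and Cat has the widest spread.

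Each gene was compared with the next in that order on the log2 scale, paired by library (two-sided exact permutation test, Benjamini-Hochberg over the 8 pairs). The order, on this length and on the other length below, was taken from the same 12 libraries, so the data chose the pairs. The p-values therefore describe how steady each difference was over these libraries and are no independent support for the order. Gpx1 was above Txn1 in 10 of 12 libraries (mean difference 0.52, SD 0.60, adjusted p = 0.0303). Txn1 was above Prdx5 in 12 of 12 (0.98, SD 0.71), Msrb1 above Prdx1 in 12 of 12 (3.61, SD 1.55) and Prdx1 above Sod1 in 12 of 12 (1.53, SD 1.08), each at an adjusted exact p of 0.0013, from the smallest p that 12 libraries allow. Prdx5 and Msrb1 did not differ beyond their spread (0.065, SD 0.84, adjusted exact p = 0.787), and neither did Sod1 and Cat (adjusted exact p = 0.0766), Cat and Txnrd1 (0.150) or Txnrd1 and Sod2 (0.783). Cat stands before Txnrd1 by its mean reads per kb but was lower in 8 of 12 libraries. With the median length of the coding transcripts in place of the union of all exons, Prdx5 came before Txn1, Sod2 took place 7 and Cat was last; the other 5 genes kept their places. On that length the order of Txn1 and Prdx5 turned, with Prdx5 above Txn1 in 11 of 12 libraries (mean log2 difference 0.59, SD 0.71, adjusted exact p = 0.0258). Msrb1 was above Prdx1 in 11 of 12 libraries rather than all (1.69, SD 1.56, adjusted exact p = 0.0117), with Prdx1 at 856 and Sod1 at 387 normalised reads per kb. Sod1 was then above Sod2, its next gene, in 10 of 12 (2.12, SD 2.5, adjusted exact p = 0.0127). The close levels of Prdx5 and Msrb1, and of Sod1 and Cat, also depended on the length used. By coding transcripts Prdx5 stood at 5619 and Msrb1 at 2251.5 normalised reads per kb, and Cat at 82.8 below Sod1. These pairs were not neighbours there and were not tested on that length.

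Between control and LOY libraries no gene of the 9 passed an adjusted p of 0.05 in limma, where 2 of the 6951 genes tested did (0.0288%). At an unadjusted p below 0.05 the count was also 0 of 9, against 4.37% of all genes tested. DESeq2 on the recovered reads called 0 of 9 against 3.12% of 9723 genes, and edgeR 0 of 9 against 0% of 7054; at an unadjusted p below 0.05 both tools had 0 of the 9, against 10.1% and 1.84% of all genes. All 9 genes passed the filter on low values. The groups overlapped for all 9 genes, and they overlapped for all but 14 of the genes tested (0.201%). The log2 fold change, LOY over control, was negative for 7 of the 9 and positive for Sod2 and Prdx5, with a median of -0.27, while over all genes tested the median was 0.0081 and 49.6% were negative. In the authors' deposited table the adjusted p of each of the 9 was 0.999 or higher. Its values for the 9 genes match those of DESeq2 on the recovered reads, so they add no separate test.

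**Figure D2:**
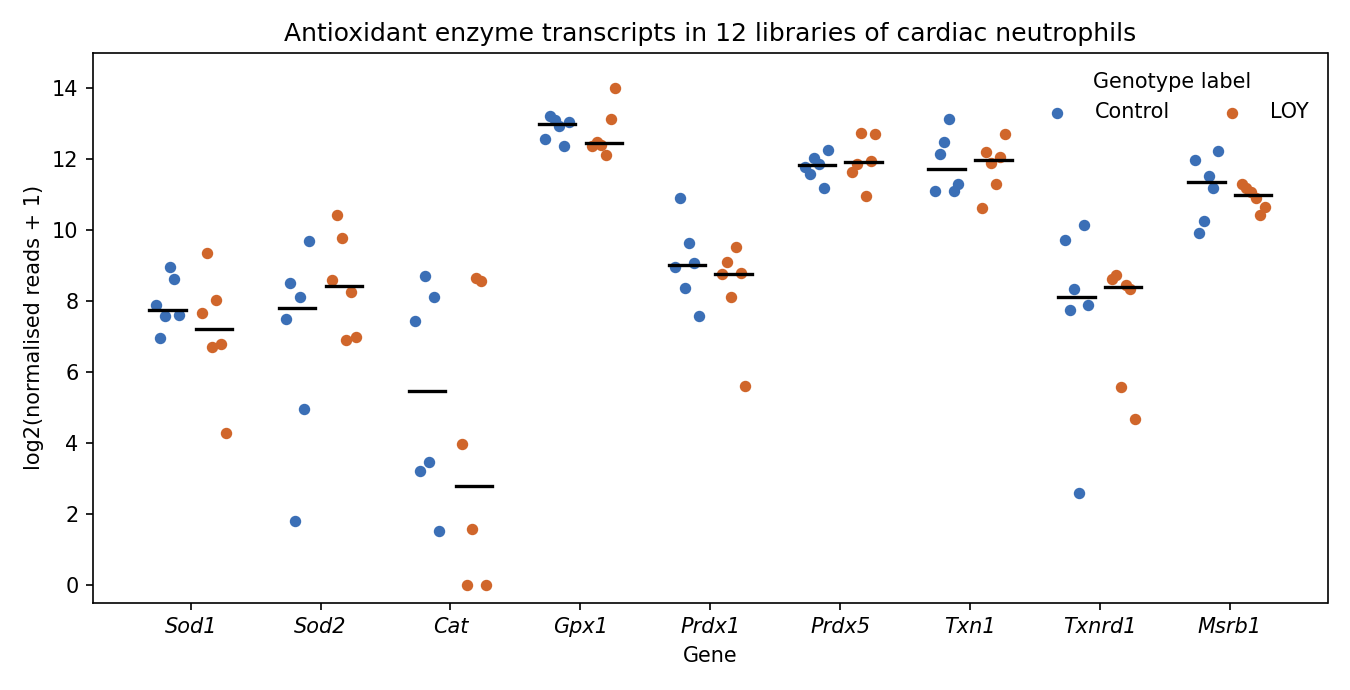
Normalised reads of the 9 genes, as log2(normalised reads + 1), in 6 control and 6 LOY libraries (points; line: median of the group). The groups overlap for every gene, and the points of Cat, Sod2 and Txnrd1 spread most.

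Superoxide removal rests on Sod1, the copper-zinc enzyme of the cytosol, and Sod2, the manganese enzyme of the mitochondrial matrix. Sod1 (ENSMUSG00000022982, GRCm38 chromosome 16, 90220754 to 90226329) ran from 123 to 495 normalised reads in the control libraries, with a median of 215. In the LOY libraries it ran from 18.5 to 650, with a median of 155. LOY 4 was the highest of all 12 and LOY 15, with 18 reads, the lowest, so that the LOY range held the whole control range. The means were 273 ± 143 and 224 ± 225 (SD, n = 6 each), and the log2 fold change was -0.80 (SE 0.89, 95% interval -2.70 to 1.10, adjusted p = 0.999 in limma).

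Sod2 (ENSMUSG00000006818, chromosome 17, 13006846 to 13040063) had 181, 367, 2.49, 276, 30.1 and 837 normalised reads in Control 2, 6, 7, 8, 11 and 12. LOY 3, 4, 5, 10, 14 and 15 held 385, 1377, 888, 119, 307 and 127. Control 7 rested on 3 reads, while the lowest LOY library had 123 reads. LOY 4 and LOY 5 were the highest of the 12, and the other 4 LOY libraries lay within the control range. The means were 282 ± 306 and 534 ± 500 normalised reads (SD, n = 6 each), a ratio of 1.89, and the log2 fold change was 1.73 (SE 1.26, 95% interval -0.97 to 4.43, adjusted p = 0.997 in limma). Without Control 7 it was 0.74, with DESeq2 0.92 and with the heart muscle markers as a covariate 2.73. At the level per kb, Sod2 was the lowest of the 9 genes in the control libraries, at 28.2, and stood at 53.3 in the LOY libraries.

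Among the enzymes that remove hydrogen peroxide, catalase was the most uneven. Cat (ENSMUSG00000027187, chromosome 2, 103453849 to 103485160), the heme enzyme of peroxisomes, had 173, 8.23, 415, 10.1, 279 and 1.85 normalised reads in Control 2, 6, 7, 8, 11 and 12. LOY 3, 4, 5, 10, 14 and 15 held 14.8, 0, 1.98, 400, 382 and 0. The values fell apart in both groups: 3 control and 2 LOY libraries stood at 173 or more, and the other 7 libraries at 14.8 or less. A count of 0 allows up to 3 reads, which is 3.49 normalised reads in LOY 4 and 3.09 in LOY 15 (counting error only). The means were 148 ± 173 and 133 ± 200 (SD, n = 6 each). The log2 fold change of -1.61 (SE 1.95, 95% interval -5.78 to 2.55, adjusted p = 0.999 in limma) is on the log2(value + 1) scale, where the libraries near 0 count heavily, and the ratio of the means was 0.901. The log2 fold change was -0.15 with DESeq2 and -3.34 with the heart muscle covariate, and it ran from -2.58 to -0.85 with 1 library left out.

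Gpx1 (ENSMUSG00000063856, chromosome 9, 108338903 to 108340343), which reduces hydrogen peroxide with glutathione, ran from 5337 to 9655 normalised reads in the control libraries with a median of 8192, and from 4428 to 16403 in the LOY libraries with a median of 5605. LOY 15 was the highest of the 12 and LOY 10 the lowest. The means, 7729.5 ± 1679.8 and 7723 ± 4528 (SD, n = 6 each), had a ratio of 0.999, and the log2 fold change was -0.13 (SE 0.30, 95% interval -0.78 to 0.52, adjusted p = 0.999 in limma). The log2 fold change was -0.38 without LOY 15 and -0.0021 without LOY 10. Gpx1 also made up the largest share of the 9 genes per kb in most libraries, at 29.2% to 48.1% in the control and 30.0% to 51.2% in the LOY libraries.

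Prdx1 (ENSMUSG00000028691, chromosome 4, 116685544 to 116700822), a cytosolic peroxiredoxin that thioredoxin regenerates, ran from 193 to 1935 normalised reads in the control libraries with a median of 519, and from 47.4 to 739 in the LOY libraries with a median of 438. Control 6 stood far above every other library, and LOY 15, with 46 reads, below all. The means were 717 ± 631 and 415 ± 235 (SD, n = 6 each), and the log2 fold change was -0.78 (SE 0.74, 95% interval -2.35 to 0.80, adjusted p = 0.997 in limma). Without LOY 15 it was -0.23 and without Control 6 it was -0.42.

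Prdx5 (ENSMUSG00000024953, chromosome 19, 6906697 to 6910106), an atypical peroxiredoxin of mitochondria, peroxisomes and cytosol, was among the steadiest of the 9. It ran from 2361 to 4940 normalised reads in the control libraries with a median of 3638.5, and from 2004 to 6893 in the LOY libraries with a median of 3856. LOY 5 and LOY 15 exceeded every control library and LOY 10 was below all of them. The means were 3649 ± 894 and 4409 ± 1961 (SD, n = 6 each), and the log2 fold change was 0.18 (SE 0.31, 95% interval -0.48 to 0.85, adjusted p = 0.999 in limma). Prdx5 shares 409 exon bases, 19.1% of its exons, with Trmt112 on the opposite strand, and the library kit does not mark strand, so reads there cannot be told apart; Trmt112 averaged 249 normalised reads.

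The thioredoxin system was uneven between its parts. Txn1 (ENSMUSG00000028367, chromosome 4, 57943373 to 57956411), the small protein that hands electrons to peroxiredoxins, ran from 2208 to 9095 normalised reads in the control libraries with a median of 3523.5, and from 1567 to 6772 in the LOY libraries with a median of 4059. Control 8 was highest, followed by LOY 15, and LOY 3 was lowest. The means were 4385 ± 2714 and 3955 ± 1814 (SD, n = 6 each), and the log2 fold change was -0.082 (SE 0.42, 95% interval -0.98 to 0.82, adjusted p = 0.9995 in limma). The LOY group had the lower mean and the higher median, and the sign of the fold change turned when 1 of 4 libraries was left out (Control 7, Control 8, LOY 3 or LOY 10).

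Txnrd1 (ENSMUSG00000020250, chromosome 10, 82833951 to 82897712), the flavoenzyme that restores thioredoxin with NADPH, had 851, 215, 323, 5.07, 1133 and 237 normalised reads in Control 2, 6, 7, 8, 11 and 12. LOY 3, 4, 5, 10, 14 and 15 held 392, 428, 46.5, 352, 324 and 24.7. Control 8 rested on 4 reads, and Control 2 and Control 11 stood above every LOY library. The means were 461 ± 434 and 261 ± 179 (SD, n = 6 each) while the medians, 280.0 and 338, had the opposite order. The log2 fold change was -0.34 (SE 1.27, 95% interval -3.06 to 2.37, adjusted p = 0.999 in limma), and it was -1.37 without Control 8, 0.057 without Control 2, 0.14 without Control 11, 0.026 without LOY 5 and 0.20 without LOY 15.

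Msrb1 (ENSMUSG00000075705, chromosome 17, 24736642 to 24742778), which reduces methionine-R-sulfoxide in proteins, had 4047, 965, 1221, 2982, 2356 and 4846 normalised reads in Control 2, 6, 7, 8, 11 and 12. LOY 3, 4, 5, 10, 14 and 15 held 2533, 2339, 2164, 1906, 1368 and 1600.4. The whole LOY range lay inside the control range. The SD of the log2 values was 0.93 under the Control label and 0.34 under LOY, a difference in spread that was not tested. The means were 2736 ± 1537 and 1985 ± 445 (SD, n = 6 each), and the log2 fold change was -0.27 (SE 0.39, 95% interval -1.11 to 0.57, adjusted p = 0.999 in limma).

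**Figure D3:**
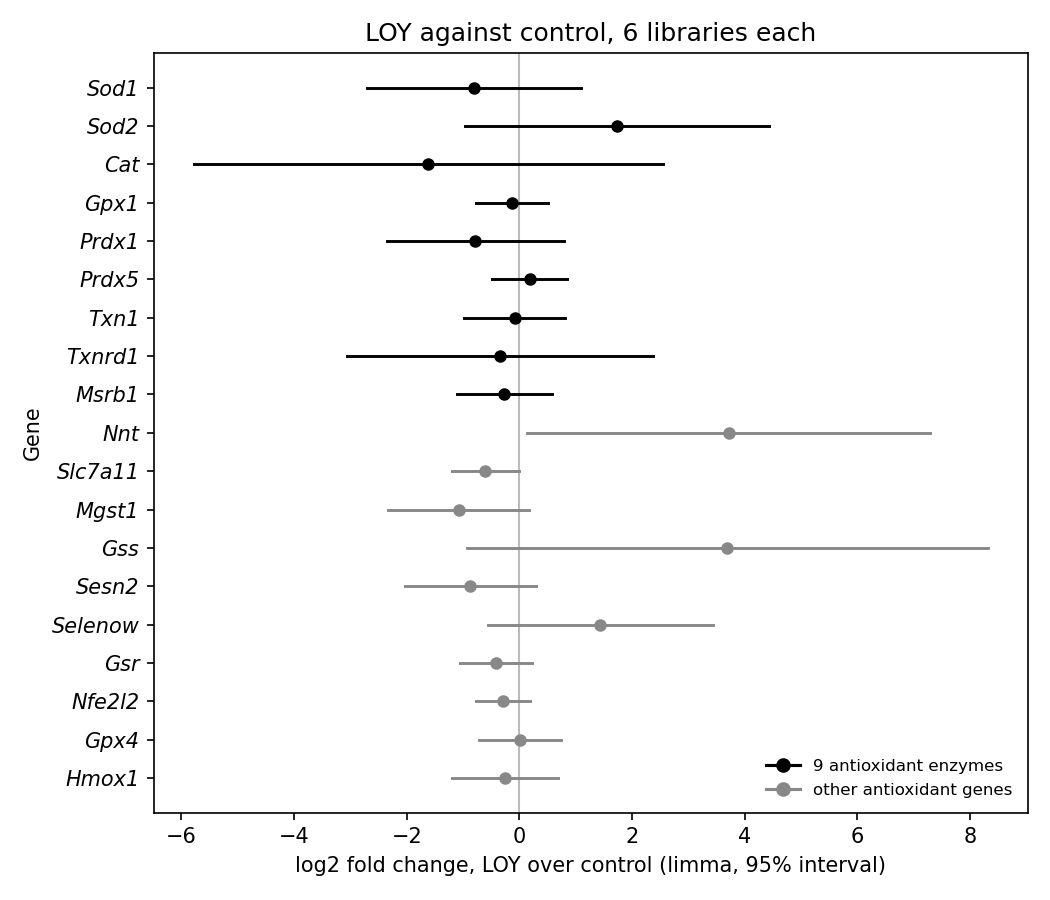
log2 fold change, LOY over control, with its 95% interval from limma, for the 9 genes (black) and 10 other antioxidant genes (grey). Every interval of the 9 genes includes 0, and those of Gpx1, Prdx5 and Txn1 lie within 1 log2 unit of it.

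The precision thus differed between the genes. The intervals of Gpx1, Prdx5 and Txn1 lay within 1 log2 unit of 0, that of Msrb1 reached -1.11, and those of Cat and Txnrd1 included changes larger than 2 log2 units in either direction. Over the 12 libraries the SD of the log2 level was 0.53 for Gpx1 and for Prdx5, 0.68 for Msrb1, 0.76 for Txn1, 1.29 for Prdx1, 1.31 for Sod1, 2.19 for Txnrd1, 2.36 for Sod2 and 3.49 for Cat. The median over all genes tested was 2.42. Only 4.32% of the genes tested had a lower SD than Gpx1, and 83.5% had a lower SD than Cat. The genes tested were not matched for level: Gpx1 had 4428 or more normalised reads in every library, and Cat had 0 reads in 2. The part of level in these shares was not tested.

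The libraries did not rank alike across the 9 genes. LOY 15 was highest of the 12 for Gpx1 and second for Txn1 and Prdx5, and it was lowest for Sod1, Prdx1 and, at 0 with LOY 4, Cat. In that library the 9 genes together took 0.356% of the normalised reads, against 0.177% in LOY 10 and 0.205% to 0.277% in the other 10. LOY 10, the library with the most heart muscle, fibroblast and macrophage marker reads, was lowest for Gpx1 and Prdx5 and, within the LOY group, highest for Cat and Prdx1. Among the control libraries, Control 7 had more Cat than LOY 10 (415 against 400 normalised reads). Control 6 and Control 8 had more Prdx1 than LOY 10 (1935 and 803 against 739). The neutrophil marker sum of LOY 10, 177350, was close to the lowest, 172010 in LOY 3. LOY 15 had the most endothelial marker reads. LOY 4 was highest for Sod1 and Sod2. A fit with the mean of the heart muscle markers as a covariate called 0 of the 9 and 0 of all 6951 genes tested, so its count does not set the 9 apart. The part of the other marker lists was not tested.

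**Figure D4:**
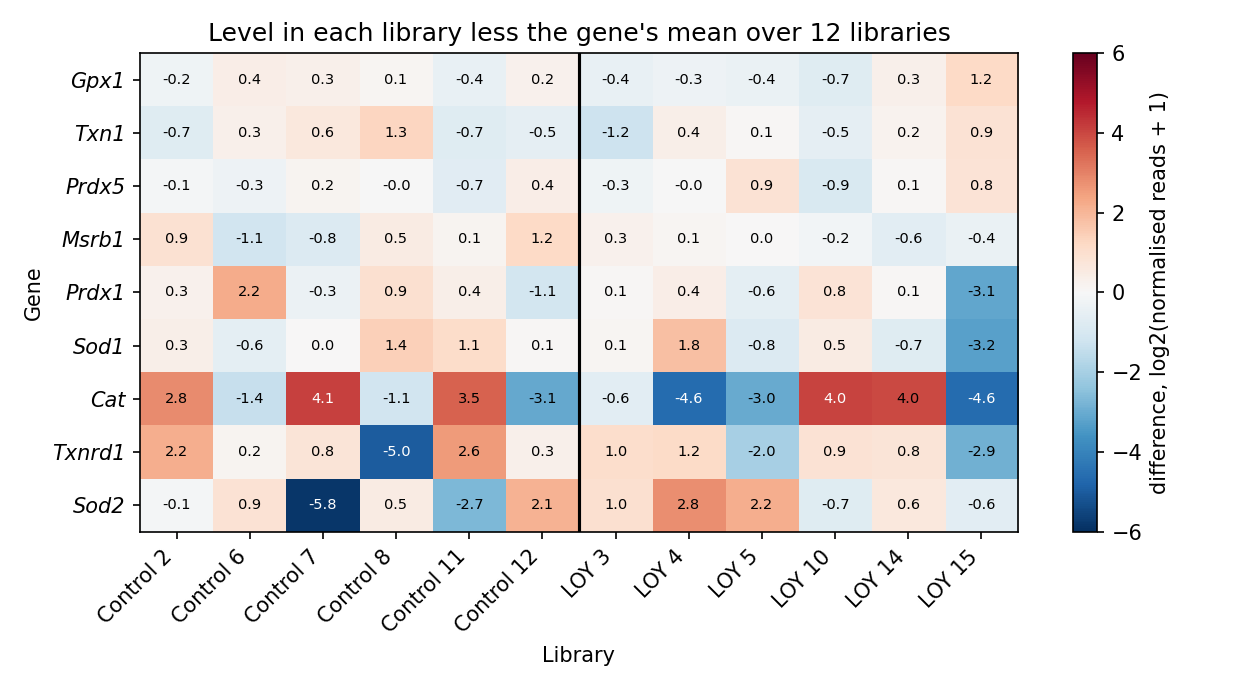
Level of each gene in each library less the mean of that gene over the 12 libraries, on the log2(normalised reads + 1) scale, with genes ordered by level per kb and a line between the genotype labels. LOY 15 is 3.1 or more below the mean for Prdx1, Sod1 and Cat and 1.2 above it for Gpx1, and Cat ranges from -4.6 to 4.1.

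For 8 of the 9 genes, those above 0 in all 12 libraries, the tested genes of the most similar profile were sought by the root-mean-square difference of log2 levels, each less the gene's own mean over the 12 libraries. All genes of a library share its depth and scaling, so likeness is a description. Nearest to Gpx1 were H3f3a, a gene of histone H3.3, at 0.19, Gm8524 at 0.25 and the schlafen gene Slfn2 at 0.25, where the root-mean-square deviation of Gpx1 itself was 0.50. Txn1 was nearest to Tmsb4x, which encodes the actin-binding thymosin beta 4 (0.27), followed by Gm14173 and Gm15361, and Msrb1 to the actin gene Actb (0.26), the histone demethylase gene Kdm6b (0.29) and the translation initiation factor gene Eif1 (0.33). Nearest to Prdx5 were the tetraspanin gene Tspan13 (0.22), Gm45308 and Gm2840. Nearest were Ccdc88b (0.60), Arid3a and Cux1 for Sod1, Fbxw7 (1.28) and Pbrm1 (1.29) among those for Sod2, Fam129a (0.73), Mknk1 and Gm13456 for Prdx1, and the interferon regulatory factor gene Irf5 (0.77), Gm16894 and Stk40 for Txnrd1. None of the nearest genes was another of the 9.

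Promoter windows in RefSeq (GRCm38.p6, 250 bases before to 50 after each annotated start) were available for all 9 genes, 11 windows in all, with 3 for Txnrd1. Windows and distances are counted from the RefSeq starts, which can differ from the GENCODE ends of the loci given above: that of Sod2 lies 993 bases inside its GENCODE locus. They were searched on both strands for the core of the antioxidant response element, TGACNNNGC, the site through which the factor Nrf2 (gene Nfe2l2) is known to act on antioxidant genes. It was found in 3 of the 11 windows and in 12.4% of the 32851 windows of all genes. The matches are shown with the core in capitals, as read on the strand of the gene; all 3 lie on the opposite strand and none overlaps a GC or TATA box.
Prdx1, chr4:116685456-116685484, plus strand, core starting 133 bases before the RefSeq start: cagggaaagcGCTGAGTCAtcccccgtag
Txnrd1, chr10:82859104-82859132, plus strand, 92 bases before the middle one of its 3 RefSeq starts: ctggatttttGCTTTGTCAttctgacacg
Sod1, chr16:90220696-90220724, plus strand, 56 bases before the RefSeq start: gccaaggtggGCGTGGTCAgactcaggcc
The 3 genes with a match were all in the less abundant group, with log2 fold changes of -0.78, -0.34 and -0.80, and none passed in limma. The mean of Nfe2l2 itself was 5943 ± 1068 normalised reads under the Control label and 4943 ± 1389 under LOY (SD, n = 6 each), a log2 fold change of -0.29 (SE 0.23, adjusted p = 0.997 in limma).

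GC boxes, searched as GGGCGG on both strands, were found in 9 of the 11 windows, at least 1 for each of the 9 genes, against 35.7% of all windows. Within the 250 bases before the RefSeq start there were 4 each for Sod1, Sod2 and Txn1. The TATA box, searched as TATAAA on the gene's strand, was in the windows of Prdx1, Sod1 and Txn1 and in 8.32% of all windows. The stretch before the RefSeq start of Sod2 is shown as an example with its GC boxes in capitals.
Sod2, chr17:13007589-13007838, plus strand: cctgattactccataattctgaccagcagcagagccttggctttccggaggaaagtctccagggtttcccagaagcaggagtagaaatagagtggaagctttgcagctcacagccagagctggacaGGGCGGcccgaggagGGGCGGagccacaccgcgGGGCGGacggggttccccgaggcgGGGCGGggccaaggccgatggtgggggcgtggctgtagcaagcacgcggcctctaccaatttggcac

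Other genes of the same pathways were followed in a list of 56 names (further peroxidases, thioredoxin and glutathione enzymes, Nrf2 targets and NADPH producers), of which 55 were in the table and 39 passed the filter. None of the 39 passed in limma, with 19 positive and 20 negative log2 fold changes and a median of -0.0080. DESeq2 and edgeR also called 0 after adjustment. Of all genes, limma called 0.0288%, DESeq2 3.12% and edgeR 0%. At an unadjusted p below 0.05 limma had 2 of 39, Nnt and Slc7a11, against 4.37% of all genes. DESeq2 had 5 of 49, Slc7a11, Sesn2, Gpx8, Prdx4 and Mgst2 but not Nnt, against 10.1% of all genes, and edgeR had 0 of 39 against 1.84%. Nnt, the mitochondrial transhydrogenase that makes NADPH, ran from 0 to 504 normalised reads in the control and from 84.9 to 889 in the LOY libraries, with medians of 107 and 446 (log2 fold change 3.72, SE 1.67, adjusted p = 0.997 in limma). That value was 1.44 with DESeq2 and 1.41 with edgeR, and 2.79 to 4.59 with 1 library left out. Slc7a11, the cystine importer that feeds glutathione synthesis, ran from 1272 to 2340 with a median of 1990 in the control and from 834 to 1673 with a median of 1274 in the LOY libraries (log2 fold change -0.60, SE 0.28, adjusted p = 0.997 in limma). For both the groups overlapped.

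The next genes by unadjusted p were Mgst1, a membrane glutathione transferase (log2 fold change -1.08, SE 0.59), the glutathione synthetase gene Gss (3.69, SE 2.16), the stress-induced sestrin gene Sesn2 (-0.87, SE 0.54) and the selenoprotein gene Selenow (1.44, SE 0.94), each at an adjusted p of 0.997 in limma. Gss was at 0 reads in 4 control and 2 LOY libraries, and its log2 fold change was 2.46 with DESeq2 and 1.08 with the heart muscle covariate. Per kb of all exons joined, the most abundant gene of this list was glutathione reductase, Gsr, at 2721 normalised reads per kb. On this length Gsr stood between Txn1 and Prdx5, and its level by coding transcripts was not computed. Nfe2l2 followed at 1434, the lipid peroxide reductase Gpx4 at 1002 and the heme oxygenase Hmox1 at 985. The mean of Gsr was 8419 ± 2359 normalised reads under the Control label and 6571 ± 2450 under LOY (SD, n = 6 each), a log2 fold change of -0.42 (SE 0.30, adjusted p = 0.997 in limma). Hmox1 had a log2 fold change of -0.26 (SE 0.44) and Gpx4 one of 0.013 (SE 0.34), whose sign turned with array weights and with other settings.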

How the data were processed

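Per the labels' protocols, left ventricles were digested, cells were sorted, and cDNA was made with the SMART-Seq v4 kit and turned into Nextera XT libraries; this chemistry marks neither strand nor molecules, so amplified copies of a molecule are counted separately. STAR 2.5.2b, featureCounts (Subread 1.5.2), Trimmomatic 0.36 and bcl2fastq 2.17 are named in the submitters' processing notes, with GRCm38 and mm10 as builds. The signal values of the deposited table are read counts that the authors scaled by 1 factor for each library; 100% of the values above 0 were whole multiples (within 0.01 of a read) of 1 step per library, which gave the reads back. The authors' deposited table also gives a log2 fold change, a p-value and an adjusted p-value per gene; the sources used here do not name the tool behind them. Total reads of the listed genes, 6767108 to 12561174 per library, set the depth. The floors of 3 reads cover counting error only, while the 95% intervals of fold changes come from the spread between libraries.

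The comparison was fitted with limma 3.58.1 (trend, robust empirical Bayes) on log2(normalised reads + 1) in all 12 libraries, for the 6951 genes with 10 or more normalised reads in 6 or more libraries, with Benjamini-Hochberg adjustment over all of them and a threshold of 0.05. Alternatives were DESeq2 1.42.0 and edgeR 4.0.16 on the recovered reads, quantile normalization, other filters, array weights, pseudocounts of 0.5 and 5, a heart muscle covariate, an exact permutation test per gene (SciPy 1.17.1) and each library left out. Levels per kb used the union of exons in GENCODE M21 (GRCm38; 11892 identifiers matched). Copies of the 9 genes were sought with blastn in GENCODE transcripts (at least 90% identity over 200 bases): the copies of Sod1 (1), Prdx1 (3) and Txn1 (1) are not listed in the table, Sod2 shares such stretches with 7 listed genes, and how reads with several matches were handled is not stated in the labels. No 2 libraries agreed within sampling noise (lowest chi-square per degree of freedom 196). The genes named are the 9, and of the pathway list the 6 of smallest unadjusted p and the 4 of highest level per kb. Members and lists were chosen with earlier results of these data known. Some items are not reported here.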

Additional observations from a re-analysis of the deposited data

Results flagged for a closer look

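In 38 groups of 6 libraries (the 9 genes and the 10 other antioxidant genes named, in each genotype), 3 samples lay far from the others of their group by Dixon's test, where chance gives about 5% of groups. Prdx1 had 1935 normalised reads in Control 6, against 803 in the next control library. Gss had 300.06 in Control 11, against 26.8 in the next. Selenow had 656 in LOY 10, the library with the most heart muscle marker reads, against 289 in the next LOY library; the part of those reads was not tested.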

How the results depend on the processing

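The count of 0 called among the 9 genes, and of 0 among the other antioxidant genes, held under every alternative run. Of 198 alternative values of the 9 log2 fold changes, 189 kept their direction and stayed short of the threshold and 9 changed sign. The 189 include the other filters and the exact permutation test, which reuse the fold change of the main fit and could change only its p. The adjusted p of the alternatives ran from 0.775 to 0.9999 and the exact permutation p per gene from 0.238 to 0.864. The sign of Txn1 turned with the heart muscle covariate (0.20) and ran from -0.27 to 0.17 with 1 library left out, and Txnrd1 ran from -1.37 to 0.20; the cause was not tested. Without a change of sign, DESeq2 gave -0.28 for Sod1, -0.82 for Txnrd1, -0.46 for Msrb1 and -0.0013 for Gpx1, the covariate gave 0.65 for Prdx5 and -1.04 for Txnrd1, and Sod1 ran from -1.24 to -0.23 with 1 library left out. Gpx4 was at -0.018 with array weights, -0.12 with the covariate and -0.15 to 0.19 with 1 library left out, and Hmox1 at -0.46 to 0.035. The number of genes called in all, 2 in limma, was 303 with DESeq2, 0 with edgeR, with no filter, with a mean of at least 50 and with the covariate, and 0 to 4 with 1 library left out. Of the 24 nearest profiles, 21 were shared at a pseudocount of 0.5 and 21 at one of 5. No paired analysis was possible because the groups share no replicate number. Cat, Txnrd1 and Sod2 had 0 to 4 reads in some libraries, where counting error is wide.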
